A study of Mus musculus with 4 samples.

Results

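Genes with 30 or more accessible regions (peaks) were examined in Lin-Sca1+cKit+ bone marrow cells, the sorted fraction that holds blood stem cells and early progenitors. Membership was set by counting rows: every peak in the deposited ATAC table carries 1 assigned gene name, and all peaks of each name with at least 30 rows were taken, whatever their signal or their response to genotype. The rule found 127 of 31518 gene names (0.403%), which together held 4925 of 130941 peaks (3.76%). Chromatin accessibility had been measured by fast-ATAC, in which a transposase cuts open DNA and inserts sequencing adapters, in 2 Helios null mice and 2 wild-type (WT) mice, all 10 weeks old, with 50000 cells per library. Helios is an Ikaros-family zinc finger transcription factor encoded by Ikzf2. The sources used here do not give the strain, the sex or the way the null allele was made, and each genotype is 2 mice.

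Active mammalian genes have an open promoter, and many also have open distal elements in introns and in the flanking DNA, where transcription factors bind and enhancers or silencers act on the promoter. Genes with many such elements are often long and cell-type specific, and in blood they include transcription factors such as RUNX1 and ERG that stem cells need. Ikaros-family proteins bind DNA through zinc fingers that recognise a TGGGAA core and act with chromatin remodelling and histone deacetylase complexes.

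Counts in peaks totalled 30290804 and 22433714 in the Helios null libraries and 29745812 and 16033211 in the WT libraries. Over Ddx3y, Uty, Kdm5d and Eif2s3y, which are Y-linked, peaks held 1166 and 2 counts in Helios null 1 and 2, against 1715 and 5 in WT 1 and 2, so library number followed sex in both genotypes, and the number-1 library was also the deeper one. The 9 peaks assigned to Ikzf2 summed to 52.1 and 55.5 CPM (counts scaled to library size, per 1000000 reads in peaks) in Helios null and 66.1 and 84.3 CPM in WT, lower in both null libraries and not at 0. Such peaks need not lie in the deleted part and do not by themselves check the deletion. Peaks of 8 of 9 stem and progenitor marker genes of the sort summed to 771 to 812 CPM over the 4 libraries, while those of 8 lineage genes that the sort removes summed to 245 to 281 CPM. At promoters the sums were 152 to 158 CPM for the first list and 35.9 to 43.4 CPM for the second, where 4 of 8 genes had a promoter peak. No peak was assigned to Ly6a, which encodes Sca1. In these bulk libraries, more cells open at a site and a more open site per cell cannot be told apart.

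Promoter sequences were available for 89 of the 127 genes, and for 72 of these at least 1 window lay under a peak of the gene. The sequences below are the 250 bases before the transcription start from RefSeq (GRCm38.p6, the assembly that mm10 names), for 6 windows that lay under a peak and on which later results turn, each 5′ to 3′ on the strand of the gene with CpG dinucleotides in capitals. Runx1 is shown at its distal start (chr16:92826075-92826324, minus strand) and at its proximal start (chr16:92697330-92697579, minus strand). Gse1 (chr8:120537159-120537408, plus strand) and Septin9 (chr11:117265996-117266245, plus strand) stand for genes with higher summed counts in Helios null. Both windows lie at starts inside the annotated gene. Celf2 (chr2:6872036-6872285, minus strand) had the promoter with the smallest p among those lower in Helios null. Firre (chrX:50635322-50635571, minus strand) had the largest difference between libraries of the same genotype.
Runx1 distal: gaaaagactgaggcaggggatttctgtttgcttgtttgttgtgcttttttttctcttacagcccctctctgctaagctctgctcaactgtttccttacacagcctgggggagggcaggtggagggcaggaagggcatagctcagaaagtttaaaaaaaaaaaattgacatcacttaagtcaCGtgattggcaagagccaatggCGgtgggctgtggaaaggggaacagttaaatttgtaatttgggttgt
Runx1 proximal: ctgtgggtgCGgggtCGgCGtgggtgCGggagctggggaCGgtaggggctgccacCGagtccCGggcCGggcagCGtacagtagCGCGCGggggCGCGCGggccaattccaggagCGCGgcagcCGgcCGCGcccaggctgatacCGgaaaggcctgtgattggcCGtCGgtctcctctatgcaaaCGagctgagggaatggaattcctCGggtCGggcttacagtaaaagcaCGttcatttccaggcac
Gse1: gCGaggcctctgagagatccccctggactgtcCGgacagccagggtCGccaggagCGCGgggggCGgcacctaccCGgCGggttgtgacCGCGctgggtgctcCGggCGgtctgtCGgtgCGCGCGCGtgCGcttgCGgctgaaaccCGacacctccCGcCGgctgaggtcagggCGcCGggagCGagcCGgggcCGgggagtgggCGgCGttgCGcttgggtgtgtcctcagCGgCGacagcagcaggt
Septin9: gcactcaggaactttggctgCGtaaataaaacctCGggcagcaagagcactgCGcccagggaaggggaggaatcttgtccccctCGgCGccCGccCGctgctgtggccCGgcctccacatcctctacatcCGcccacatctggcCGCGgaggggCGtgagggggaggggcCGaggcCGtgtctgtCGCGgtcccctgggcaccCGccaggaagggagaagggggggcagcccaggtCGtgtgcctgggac
Celf2: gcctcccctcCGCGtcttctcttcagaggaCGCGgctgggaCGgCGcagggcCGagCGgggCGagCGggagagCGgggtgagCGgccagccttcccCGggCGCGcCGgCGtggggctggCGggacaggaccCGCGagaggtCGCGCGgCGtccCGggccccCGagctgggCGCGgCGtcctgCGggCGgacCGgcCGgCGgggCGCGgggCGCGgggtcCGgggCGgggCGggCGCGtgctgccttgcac
Firre: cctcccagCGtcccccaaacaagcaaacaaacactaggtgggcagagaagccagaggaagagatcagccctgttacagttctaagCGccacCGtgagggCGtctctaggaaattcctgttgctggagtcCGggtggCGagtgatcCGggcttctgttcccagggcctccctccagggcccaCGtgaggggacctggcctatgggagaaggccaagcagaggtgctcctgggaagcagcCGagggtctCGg

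The starts of Runx1 differed in base composition, with 2 CpG dinucleotides and 45.6% G+C at the distal start and 27 CpG and 67.6% G+C at the proximal start. The Celf2 window had 43 CpG, the Gse1 window 32, the Septin9 window 18 and the Firre window 10. Over all 170 windows of the 89 genes the median was 12.5 CpG and 60.6% G+C, against 6 CpG and 52.4% G+C over 32851 windows in the table. The Ikaros-family core TGGGAA or its complement TTCCCA lay in 19.4% of the windows of these genes and in 21.6% of all windows. Of the 6 windows shown, Firre held 2 matches and the other 5 held none. The ETS core AGGAAG or CTTCCT was found in 25.3% of the windows of these genes and 29.5% of all, the RUNX core TGTGGT or ACCACA in 7.65% and 14.0%, and the GATA core AGATAA or TTATCT in 4.71% and 9.99%. The Ikaros matches in Firre overlapped no match of the other cores. These shares describe letters in the window and not binding.

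Pde4d had the most peaks, 117 over a span of 1659 kb. It encodes a phosphodiesterase that degrades cyclic AMP, and its annotated gene (chr13:108449948-109953461) is 1504 kb long, the longest of the set. Foxp1, a forkhead transcription factor with a role in B cell development, had 68 peaks, and Pde4b, another cyclic AMP phosphodiesterase, had 64. The next were Celf2, an RNA-binding splicing regulator (63 peaks), Hivep3, a large zinc finger protein (62), Gse1, a coiled-coil protein found with histone deacetylase corepressor complexes (61), Rora, an orphan nuclear receptor (60), and Sgms1, a sphingomyelin synthase (59). Bmper, a secreted protein that binds bone morphogenetic proteins, had 57 and Elmo1, a partner of Dock exchange factors, had 55. Trps1 also had 55 and follows Elmo1 only in the alphabet. At the edge of the rule, 14 genes had exactly 30 peaks, while 18 had 29 and were left out.

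**Figure D1:**
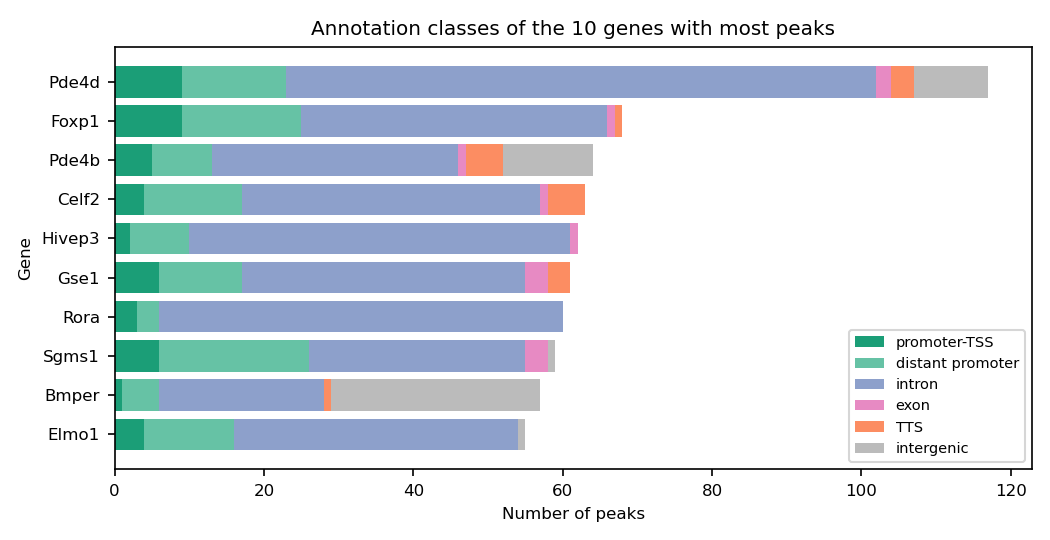
Number of peaks (x axis) in each annotation class for the 10 genes with most peaks (y axis), from Pde4d with 117 to Elmo1 with 55. Introns are the largest class in every gene shown except Bmper, where 28 of 57 peaks are intergenic.

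The genes were long, with a median annotated length of 243 kb, and their peaks spanned a median of 295 kb. Peak density along that span had a median of 13.1 per 100 kb and ran from 3.90 in Camta1 to 35.1 in Tnfaip8. Of the 4925 peaks, 3833 (77.8%) lay inside the gene they were assigned to. RefSeq held 117 of the 127 names as protein-coding genes, and 5 names were not matched. The name of 1 gene had been stored as a spreadsheet date and was identified as Septin9 because the deposited gene coordinates (chr11:117199661-117362325) are those of Septin9 in RefSeq.

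For 17 names most of the peaks lay outside the named gene, and 9 names were shorter than 20 kb. All 30 peaks of Gm22715, annotated as 0.091 kb, lay inside Gse1. All 46 peaks of Gm15599 lay inside Arid1b, which encodes a subunit of the BAF chromatin remodeller, and all 36 of Gm22556 inside Wwox, a tumour suppressor gene at a fragile site. Counted by position, the Gse1 gene body held 101 peaks, of which 60 carried its own name, and the Arid1b body held 82, of which 20 did. Wwox held 76 peaks, 26 under its own name. Of the 33 peaks in Zfp608 only 2 carried its name and 27 were assigned to Gm26742, and of the 31 in Angpt1, the gene of a ligand of the TIE2 receptor, 1 carried its name and 30 were assigned to Gm17473. Some names drew peaks from outside genes: 36 of 38 peaks of Cdh26, all 32 of Gm23186 and 31 of 32 of 4930594M17Rik were intergenic. A count of peaks per name therefore is not always a count per transcription unit.

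Intronic peaks made up 56.8% of the peaks of these genes, against 32.1% of all peaks in the table. Promoter peaks made up 6.58%, against 15.2% of all, distant-promoter peaks 19.0% against 24.0%, intergenic peaks 13.3% against 19.9%, exon peaks 2.48% against 5.02% and peaks at transcription ends 1.85% against 3.79%. These shares are given as a description. The number of promoter peaks per gene had a median of 2 and reached 9 in Pde4d, Foxp1 and Mef2c, while 15 names had none. Peak strength was close to that of the whole table, with a median of 3.32 CPM against 3.16 CPM, and the median width was 405 bp in both. The promoter class was the strongest, with a median of 8.23 CPM, and intergenic peaks were the weakest, with 2.74 CPM. Within a gene the counts were spread over many peaks: the strongest peak held a median of 16.5% of the summed CPM, from 5.24% in Pde4d to 40.5% in Camta1.

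The share of all counts that lay in these 4925 peaks was 3.53% and 3.39% in the Helios null libraries and 3.25% and 3.11% in the WT libraries. Both null libraries were above both WT libraries. The means were 3.46 ± 0.0963% and 3.18 ± 0.102% (SD, n = 2 each), a difference of 0.277 percentage points with an exact permutation p of 0.333 (2-sided), which is the smallest that 2 against 2 can give. The counts behind the shares were 1067779 and 760259 in Helios null and 967229 and 498221 in WT.

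Summed over its peaks, each gene gave 1 value per library, and these were tested with edgeR over all gene names. At a Benjamini-Hochberg adjusted p under 0.05, 0 of the 127 genes were higher and 0 lower in Helios null (background 0.0% in each direction of 31513 names), and the smallest adjusted p among them was 0.179. At an unadjusted p under 0.05, 28 genes were higher (22.0%, against a background of 10.2%) and 11 were lower (8.66%, against 15.1%). Fitted log2 fold changes (Helios null over WT) were above 0 in 78 genes (61.4%, against 51.0% of all names) and below 0 in 49 (38.6%, against 49.0%), with a median of 0.13 against 0.01 over all names. Both Helios null libraries lay above both WT libraries in 65 genes (51.2%, background 34.1%) and below them in 35 (27.6%, background 33.5%). DESeq2, run as an alternative on the same sums, called 7 genes higher (5.51%, background 1.89%) and 2 lower (1.57%, background 4.98%).

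**Figure D2:**
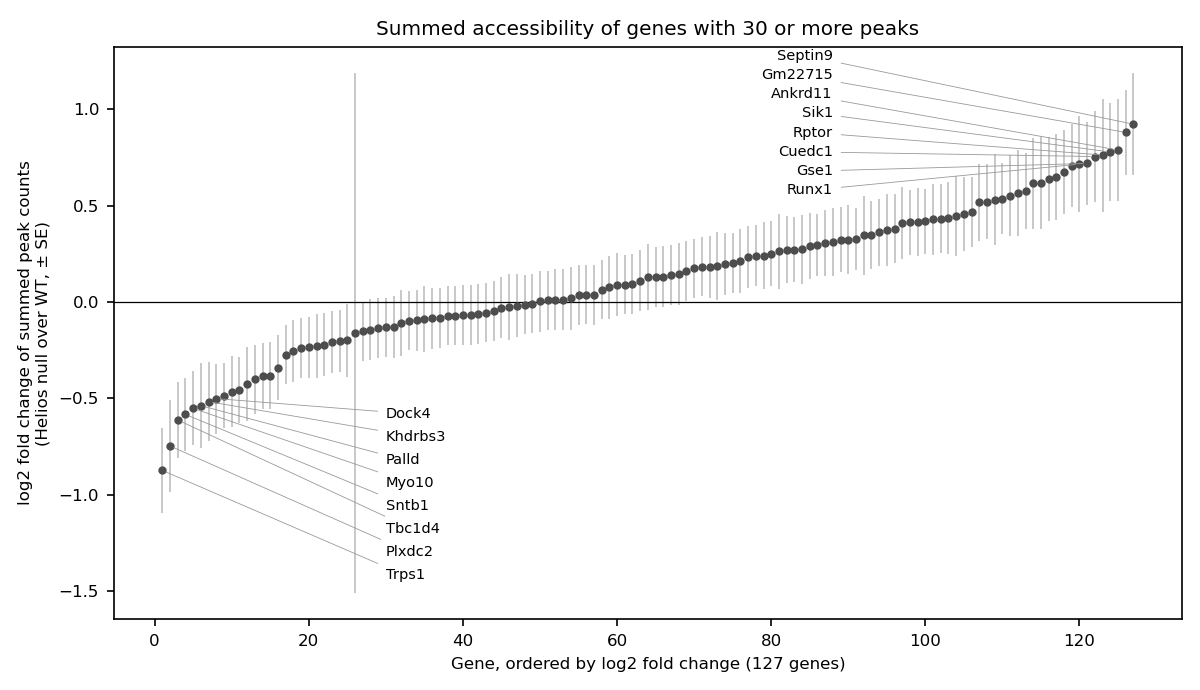
Each point is 1 of the 127 genes, ordered by the log2 fold change of its summed peak counts (Helios null over WT, y axis), with bars of 1 SE. Values run from -0.87 in Trps1 to 0.92 in Septin9; the long bar near the left belongs to Firre, whose libraries of 1 genotype differ widely.

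The largest higher sum was that of Septin9, which encodes a cytoskeletal GTP-binding protein. Its 49 peaks summed to 481 and 357 CPM in Helios null and 276 and 166 CPM in WT. The groups did not overlap, with Helios null above WT, and all 49 peaks had a fold change above 0. Septin9 lies on chromosome 11, where 75.6% of all peaks did, with a median of 0.39. The log2 fold change was 0.92 ± 0.27 (SE), with an edgeR adjusted p of 0.179 and a DESeq2 adjusted p of 0.0315. Ankrd11, an ankyrin repeat protein that recruits histone deacetylases, had 243 and 176 CPM in Helios null and 150 and 92.4 CPM in WT (log2 fold change 0.79 ± 0.26). Its groups did not overlap, and 30 of its 31 peaks were above 0. Both values depended on the libraries and on the surroundings of the peaks. With 1 library left out, the log2 fold change of Septin9 ran from 0.60 (without WT 2) to 1.34 (without WT 1) and that of Ankrd11 from 0.48 to 1.18 without the same libraries. With the trend of fold change with local peak density removed, a relation described further on, they were 0.55 and 0.34.

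Gse1 had 894 and 666 CPM in Helios null and 544 and 404 CPM in WT. The 30 peaks named Gm22715, which lie in the same gene, had 495 and 348 CPM in Helios null and 257 and 201 CPM in WT. Neither name overlapped between genotypes, and the log2 fold changes were 0.72 ± 0.22 and 0.88 ± 0.22 (edgeR adjusted p 0.179 for both, DESeq2 adjusted p 0.0434 and 0.029). Over all 101 peaks within the Gse1 gene body, 99 were above 0 with a median of 0.72, 85 were higher in both null libraries than in both WT libraries (background 28.0% of all peaks), and 1 was lower in both (background 28.3%). The whole body summed to 1526 and 1129 CPM in Helios null and 900 and 692 CPM in WT. These peaks lie in dense surroundings, of which they are themselves a part. With the density trend removed the log2 fold changes were 0.19 for Gse1 and 0.35 for Gm22715. With 1 library left out they ran from 0.49 to 0.95 for Gse1 and from 0.60 to 1.11 for Gm22715, both lowest without Helios null 1.

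Runx1, a transcription factor required for blood stem cells to form, had 602 and 433 CPM in Helios null and 380 and 250 CPM in WT. Helios null was above WT in every pair of libraries, and 41 of its 43 peaks were above 0. The log2 fold change was 0.72 ± 0.25, with an adjusted p of 0.179 by edgeR, and DESeq2 did not call it. It was 0.42 with the density trend removed, and ran from 0.44 (without WT 2) to 1.05 (without WT 1) with 1 library left out. At the proximal promoter, whose sequence is CpG-rich, the peak had 63.9 and 47.0 CPM in Helios null and 40.5 and 26.9 CPM in WT (log2 fold change 0.72 ± 0.24). At the CpG-poor distal promoter it had 37.3 and 30.7 CPM in Helios null and 30.8 and 18.9 CPM in WT (0.45 ± 0.25). The groups overlapped at the distal promoter and not at the proximal one, and the difference between the promoters was not tested. The promoter peaks shown above for the other 2 higher genes, both at starts inside the annotated gene, were also above WT. They had 36.5 and 26.8 CPM in Helios null and 22.4 and 19.8 CPM in WT at Gse1, and 59.9 and 47.8 CPM in Helios null and 34.9 and 22.1 CPM in WT at Septin9. The Gse1 one lies 308.8 kb from the low-coordinate end of the gene. At that end a weak peak had a log2 fold change of -0.11, and the next, 1.504 kb in, had 0.48.

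The remaining 3 of the 8 largest were a kinase, a kinase complex subunit and a ubiquitin-binding protein. Sik1, a salt-inducible kinase, had 342 and 263 CPM in Helios null and 219 and 134 CPM in WT, over 30 peaks of which 21 were intergenic. Rptor, the substrate-binding subunit of mTOR complex 1, had 205 and 150 CPM in Helios null and 135 and 73.6 CPM in WT. Cuedc1, a CUE domain protein, had 410 and 308 CPM in Helios null and 255 and 170 CPM in WT. None of these groups overlapped, and in each gene 29 of 30 peaks were above 0. Over all peaks of the same chromosome the share was 75.6% for Rptor and Cuedc1 (chromosome 11) and 57.4% for Sik1 (chromosome 17). The log2 fold changes were 0.78 ± 0.26, 0.76 ± 0.29 and 0.76 ± 0.24, with edgeR adjusted p-values of 0.179, 0.182 and 0.179. With the density trend removed the log2 fold changes were 0.42 for Sik1, 0.36 for Rptor and 0.36 for Cuedc1. Without WT 2 they were 0.47, 0.39 and 0.49, and without WT 1 they were 1.18, 1.27 and 1.08. DESeq2 called Sik1, Cuedc1, Ankrd11 and also Eya2, a phosphatase and transcriptional coactivator whose 31 peaks were all above 0.

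The largest lower sum was that of Trps1, a GATA-type zinc finger repressor. Its 55 peaks summed to 192 and 240 CPM in Helios null and 323 and 469 CPM in WT. Both null libraries were below both WT libraries, and 0 of the 55 peaks had a fold change above 0. The log2 fold change was -0.87 ± 0.22, with an adjusted p of 0.179 by edgeR and 0.0291 by DESeq2. Trps1 peaks reached far beyond the gene, over 1032 kb, and 28 of the 55 were intergenic. Plxdc2, a transmembrane plexin domain protein, had 118 and 147 CPM in Helios null and 173 and 272 CPM in WT, with 0 of 32 peaks above 0 (log2 fold change -0.75 ± 0.24, adjusted p 0.179 by edgeR and 0.047 by DESeq2). With the density trend removed the log2 fold change was -0.41 for Trps1 and -0.11 for Plxdc2, which lies in the sparsest surroundings of the 127 genes. Without WT 2 it was -0.58 for Trps1 and -0.39 for Plxdc2, and without WT 1 it was -1.12 and -1.04.

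The other 6 of the 8 largest lower sums differed less. Tbc1d4, a Rab GTPase-activating protein, had 144 and 179 CPM in Helios null and 214 and 280 CPM in WT. Myo10, an unconventional myosin of filopodia, had 212 and 249 CPM in Helios null and 292 and 384 CPM in WT. Dock4, an exchange factor for Rac, had 233 and 266 CPM in Helios null and 312 and 395 CPM in WT. These groups did not overlap, and the log2 fold changes were -0.61 ± 0.20, -0.55 ± 0.19 and -0.50 ± 0.18. Sntb1 (a syntrophin), Palld (palladin, which binds actin) and Khdrbs3 (an RNA-binding protein) had log2 fold changes of -0.58 ± 0.19, -0.54 ± 0.22 and -0.52 ± 0.21, each with both null libraries below both WT libraries. By edgeR the adjusted p of these 6 genes ran from 0.179 to 0.188, and DESeq2 called none of them. With the density trend removed the log2 fold changes were -0.43 for Tbc1d4, -0.81 for Myo10 and -0.42 for Dock4, against -0.14 for Sntb1, -0.25 for Palld and -0.03 for Khdrbs3. Leaving out WT 2 gave values from -0.41 for Tbc1d4 to -0.20 for Palld, with -0.27 for Khdrbs3. Leaving out WT 1 gave values from -0.81 for Palld to -0.66 for Dock4.

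**Figure D3:**
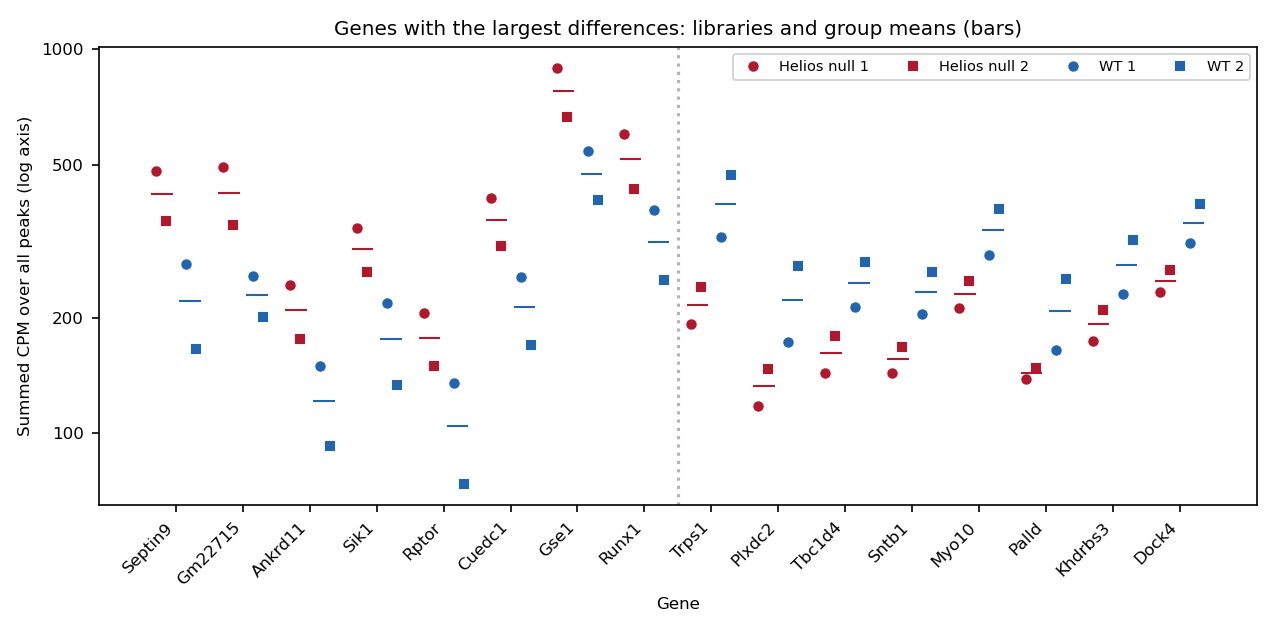
Summed CPM over all peaks (y axis, log scale) of the 8 genes with the largest higher and the 8 with the largest lower fold change (x axis), with the Helios null libraries in red left of the WT libraries in blue; circles are number-1 and squares number-2 libraries, and bars are group means. The groups do not overlap in any of the 16 genes, which the choice by fold change nearly fixes (over all names 34.1% have Helios null wholly above WT and 33.5% wholly below), and in every one WT 2 is the library farthest from Helios null 1.

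Libraries of 1 genotype differed in the same order as the genotypes. In 62 of the 127 genes (48.8%, background 25.3%) the sums ran from high to low as Helios null 1, Helios null 2, WT 1 and WT 2, and in 26 (20.5%, background 25.2%) they ran from low to high in that order. WT 2 was also the shallowest library, and the part of depth, sex and library number in these sums cannot be told apart. Within number 1 and within number 2 the ratio of Helios null to WT had the same sign in 109 genes and opposite signs in 18. Over the peaks of these genes, the median log2 ratio of Helios null to WT was 0.07 within number 1 and 0.07 within number 2, against -0.01 and 0.01 over all peaks. With 1 library of each genotype per number, these are values with no test. A fit of the sums with library number as a term, which also follows sex, called 48 genes higher (37.8%, against 22.6% of all names). It called 17 lower (13.4%, against 24.4%), where the fit without it called 0 in each direction. Few values are left in that fit to estimate spread between replicates, so its calls rest mostly on spread pooled over names. Its SE was nearly equal between genes, with 0.1145 for Septin9 and 0.113 for Pde4d, against 0.2661 and 0.1619 without the term.

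Peaks were then tested singly over the whole table. After the low-count filter 4921 of the 4925 peaks were tested, and edgeR called 0 of them higher (background 0.000765%) and 0 lower (background 0.00535%). At an unadjusted p under 0.05, 479 were higher (9.73%, background 8.29%) and 283 lower (5.75%, background 11.5%). Fitted fold changes were above 0 for 2767 peaks (56.2%, against 50.4% of all) and below 0 for 2154 (43.8%, against 49.6%), with a median log2 fold change of 0.08 against 0.01 for all peaks. Both null libraries were above both WT libraries at 1483 peaks (30.1%, background 28.0%) and below them at 1082 (22.0%, background 28.3%). DESeq2 called 19 of the 1226 peaks of these genes that it adjusted higher (1.55%, background 0.908%) and 11 lower (0.897%, background 1.98%). By class the median log2 fold change was 0.01 at promoters, 0.13 at distant promoters, 0.09 in introns and -0.03 at intergenic peaks. Over all peaks of the table the same classes had 0.02, 0.08, 0.01 and -0.14.

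Peaks of 1 gene tended to share a direction. In 22 genes at least 90% of the peaks were above 0 and in 17 at least 90% were below, while 21 genes had between 40% and 60% above 0. All peaks were above 0 in Septin9, Nt5c2, Eya2 and Coro2b, and none in Trps1 and Plxdc2. The SD of the peak fold changes within a gene had a median of 0.35 on the log2 scale and ran from 0.20 in Prkch to 0.62 in Tns1. Peaks of 1 gene share the local chromatin and the 4 libraries, so these counts are not independent measurements.

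In other genes the fold changes of peaks differed along the length of the gene. The peaks of each gene were put in coordinate order and divided at the middle peak, a division made after the data were seen. In 19 genes the medians of the first and second part lay on opposite sides of 0, and in 11 they were over 0.3 apart on the log2 scale, against a median distance of 0.14. Some of the 19 had a part close to 0, such as Aff1 at 0.09 and -0.01 and Tcf4 at -0.15 and 0.01. How far the parts of a gene differ by scatter of its peaks alone was not tested. Pde4b had the largest increase along the coordinate. The median log2 fold change of its first 32 peaks was -0.47, where 5 lay above 0, and that of its last 32 was 0.08, where 18 did. The parts nearly cancelled in the sum, which was 528 and 484 CPM in Helios null and 489 and 498 CPM in WT (log2 fold change 0.04 ± 0.15, edgeR adjusted p 0.883). In Rora the first 30 peaks had a median of 0.15 and the last 30 a median of 0.53, with all 30 of these above 0. Zfp521, a zinc finger regulator of blood progenitors, had the opposite slope along the coordinate, with a median of 0.17 in its first 19 peaks and -0.33 in its last 19. Pde4d, by contrast, had medians of 0.17 and 0.19 in its parts, and 82 of its 117 peaks were above 0.

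**Figure D4:**
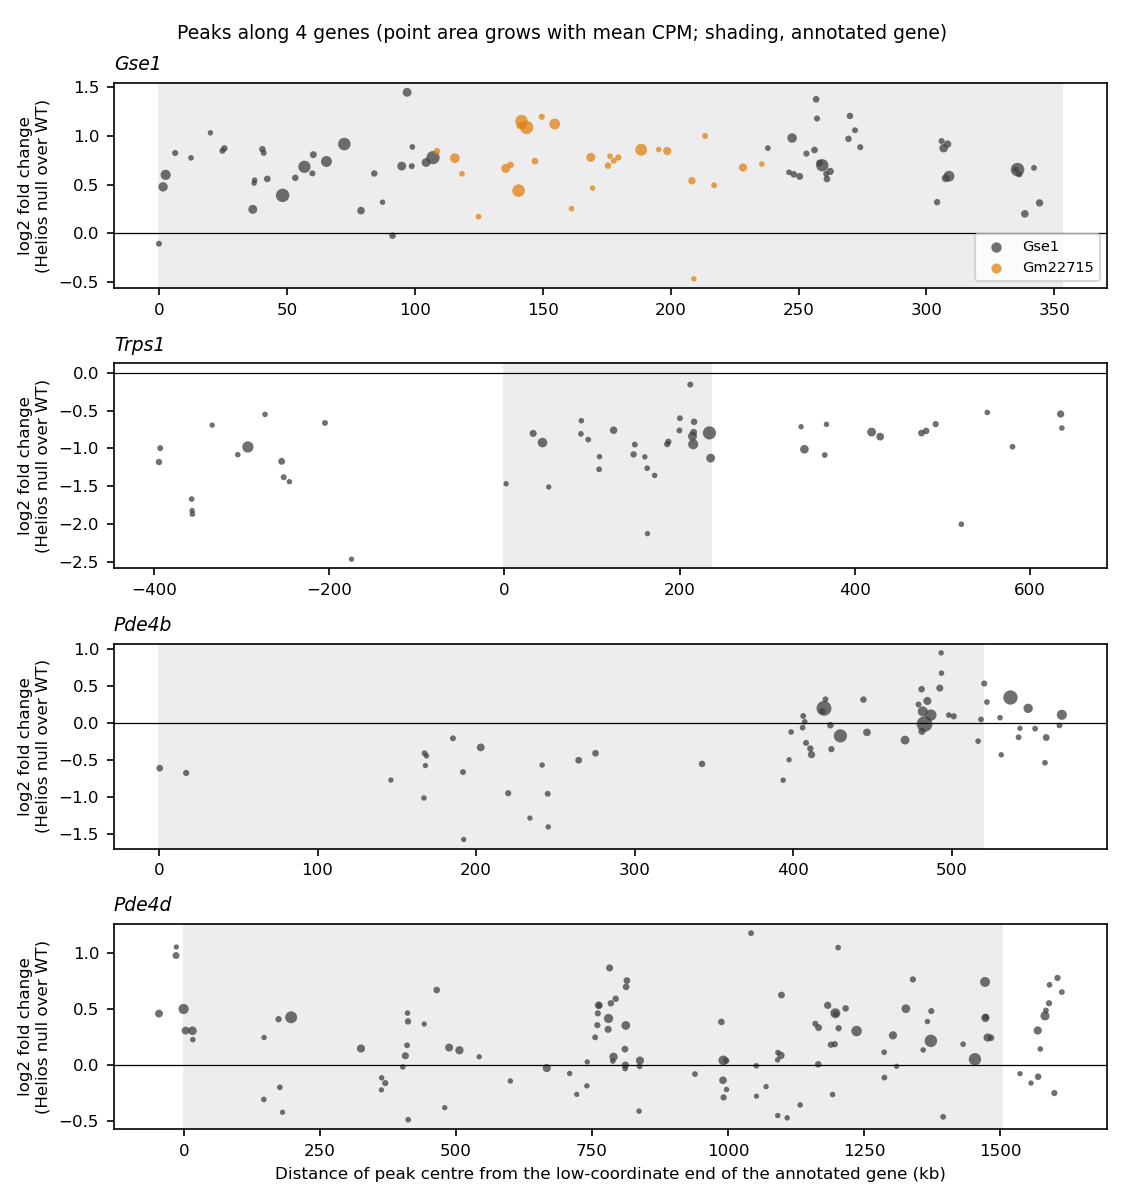
Log2 fold change of each peak (y axis, Helios null over WT) against the distance of its centre from the low-coordinate end of the annotated gene in kb (x axis), for Gse1 with the Gm22715 peaks inside it, Trps1, Pde4b and Pde4d; grey shading is the annotated gene and larger points have higher mean CPM. Nearly all peaks in Gse1 lie above 0 and all Trps1 peaks below 0 along the whole span, Pde4b peaks change from below 0 to both sides of 0, and Pde4d peaks lie on both sides with 82 of 117 above.

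Promoter peaks were then set against the other peaks of the same gene. In 82 of the 112 genes that had both (73.2%) the median fold change of promoter peaks was below that of the other peaks, against 63.9% of 10920 other gene names. The medians over genes were -0.05 for promoter peaks and 0.09 for the others, and among the other gene names -0.01 and 0.11. The median gap was -0.10 in these genes and -0.11 in the other names, so its size was alike. Each of these genes has at least 30 peaks and the other names have fewer, so the shares differ in precision. Promoter and other medians had the same sign in 93 of the 112 genes. Among the 82, the promoter median in Rora was 0.04 and that of the other peaks 0.35, and in Ankrd11 they were 0.31 and 0.82. In Septin9 they were 0.76 and 0.91.

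The fold change of these genes went with the number of peaks in and around them. Local density was counted as the peaks whose centre lay within 0.5 Mb of a peak, other peaks of the same gene included. It therefore holds in part the count of peaks by which the genes were chosen. Removing its trend also removes in part what goes with a gene's own number of peaks. The median density over the peaks of a gene ran from 32 for Plxdc2 to 203 for Gm22715. Across the 127 genes the Pearson correlation of that density with the log2 fold change was 0.58 and the Spearman correlation 0.54, and across all gene names the Spearman correlation was 0.70. Genes share neighbourhoods and libraries, so these values are descriptions without a test. In the sparsest surroundings, 43 genes had a median of -0.10 on the log2 scale and 15 lay above 0, and in the densest, 43 genes had 0.32 and 36 lay above 0. With the trend removed, the median over the 127 genes was 0.001 in place of 0.13, and 65 genes were above 0 in place of 78. The 12 genes of chromosome 15, among them Trps1, Myo10, Sntb1, Khdrbs3, Trio and Ext1, had a median of -0.27 over 485 peaks, while all peaks of that chromosome had 0.09; 5 of the 12 genes were above 0, such as Asap1 at 0.13. The 6 genes of chromosome 11, among them Septin9, Rptor and Cuedc1, had a median of 0.45 over 226 peaks, of which 165 were above 0. Over all peaks of that chromosome the median was 0.39, and 75.6% were above 0.

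By role, 11 of the 127 genes were in a list of 81 blood transcription factors. Of these, 8 lay above 0 and 3 below, where 61.4% of the 127 genes lay above 0. Their median on the log2 scale was 0.27, beside 0.13 for the 127 genes and 0.01 for all names. By the edgeR test 0 passed. The lists that follow have the same background of 61.4% and 0.13, and no list was tested against it. Runx1 and Erg, an ETS factor of stem cells, stood highest. Erg had 373 and 274 CPM in Helios null and 238 and 177 CPM in WT (log2 fold change 0.64 ± 0.22, edgeR adjusted p 0.179), with no overlap. Rora followed with 334 and 291 CPM in Helios null and 261 and 201 CPM in WT (0.44 ± 0.19, edgeR adjusted p 0.196). Foxp1 had 458 and 406 CPM in Helios null and 387 and 328 CPM in WT, and Hivep3 had 445 and 419 CPM in Helios null and 399 and 317 CPM in WT (log2 fold changes 0.27 ± 0.17 and 0.27 ± 0.18, edgeR adjusted p 0.309 and 0.323).

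Mef2c, a MADS-box factor of lymphoid and megakaryocyte development, ran the other way. It had 272 and 293 CPM in Helios null and 326 and 421 CPM in WT (log2 fold change -0.40 ± 0.18, edgeR adjusted p 0.206), with both null libraries below both WT libraries and 3 of 43 peaks above 0. Bach2 and Nfkb1 were near 0, at -0.01 ± 0.15 and 0.01 ± 0.15. Bach2, a repressor in lymphocytes, had 311 and 300 CPM in Helios null and 311 and 304 CPM in WT, which overlapped.

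The list of 42 corepressors and chromatin regulators held 6 of the genes, 5 above 0, with a median of 0.32. Besides Gse1 these included Rere, a histone deacetylase partner, with 365 and 305 CPM in Helios null and 271 and 225 CPM in WT (0.43 ± 0.18, edgeR adjusted p 0.19). Its groups did not overlap. Arid1b had 0.20 ± 0.16 over the 34 peaks that carry its name. The 82 peaks inside its gene body had a median of 0.29, with 69 above 0, and summed to 705 and 650 CPM in Helios null and 608 and 488 CPM in WT. Mllt3, a subunit of elongation complexes, and Mbnl1, an RNA splicing regulator held in the list, were at -0.09 ± 0.17 and 0.04 ± 0.16.

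Receptors and their scaffolds gave 3 genes of a list of 44. Itga9, an integrin subunit, had 311 and 259 CPM in Helios null and 228 and 161 CPM in WT (0.55 ± 0.21, edgeR adjusted p 0.182), with no overlap. Igf1r, the receptor of insulin-like growth factor 1, was at 0.17 ± 0.15 and Magi1, a junction scaffold, at -0.13 ± 0.16. Of a list of 64 kinases, phosphatases and GTPase regulators 15 were members, 9 above 0 and 6 below, with a median of 0.09. Pde4d had 853 and 739 CPM in Helios null and 661 and 606 CPM in WT (0.33 ± 0.16, edgeR adjusted p 0.228), with no overlap, and Elmo1 and Asap1 were at 0.15 ± 0.16 and 0.13 ± 0.16. The lower ones at an unadjusted p under 0.05 were Dock4 and Trio, a guanine nucleotide exchange factor, with 244 and 261 CPM in Helios null and 311 and 382 CPM in WT. The other 92 genes were in no list, 54 above 0 and 38 below, with a median of 0.09. Sgms1 was among them, with 534 and 416 CPM in Helios null and 356 and 282 CPM in WT (0.57 ± 0.20, edgeR adjusted p 0.179). Celf2 and Bmper were lower in both null libraries, at -0.24 ± 0.16 and -0.34 ± 0.17.

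Single peaks were then picked by the smallest p in each direction, 1 per gene. That choice favours large fold changes and groups that do not overlap, so these values are not comparable with the sums. Over all peaks, 28.0% had both null libraries above both WT libraries and 28.3% had both below. None of those named here passed the edgeR test, and each had an adjusted p of 0.189. In an intron of Runx1, 3.80 kb downstream of the distal start, a peak at chr16:92821727-92822826 had 74.3 and 53.9 CPM in Helios null and 33.7 and 33.6 CPM in WT. Both null libraries were above both WT libraries, and the log2 fold change was 0.93 ± 0.20. The strongest Runx1 peak, chosen after its values were seen, lay 24.6 kb downstream of the distal start (chr16:92800793-92802201), in the intron that holds a known haematopoietic enhancer of the gene, and had 104 and 84.0 CPM in Helios null and 65.9 and 44.4 CPM in WT (0.77 ± 0.22). In Gm22715, within Gse1, the peak at chr8:120369768-120370457 had 59.4 and 42.9 CPM in Helios null and 25.4 and 20.5 CPM in WT (1.15 ± 0.22). A peak of Msi2, an RNA-binding protein of blood stem cells, at chr11:88593912-88594379 had 6.93 and 4.93 CPM in Helios null and 0.631 and 1.87 CPM in WT (2.35 ± 0.45). Its WT values rest on 19 and 29 counts. Intronic peaks of Gabbr2, a GABA receptor subunit, and Bcor, a BCL6 corepressor, had log2 fold changes of 1.72 ± 0.29 and 1.44 ± 0.33.

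Among lower peaks the smallest p was in Tns1, which encodes the focal adhesion protein tensin. The peak at chr1:74055586-74055925 had 0.989 and 1.66 CPM in Helios null and 5.51 and 9.43 CPM in WT (log2 fold change -2.50 ± 0.38). The peak was lower in both null libraries than in either WT library, and the next lowest peak of Tns1 had a log2 fold change of -2.25. The gene as a whole had 371 and 343 CPM in Helios null and 371 and 342 CPM in WT. The peak with the smallest p lies 4.37 Mb from the annotated end of Ikzf2 on the same chromosome. Tns1 was the only one of the 127 genes with a peak within 10 Mb of Ikzf2. At the Celf2 promoter shown above the peak had 14.8 and 14.9 CPM in Helios null and 25.3 and 34.0 CPM in WT (-0.99 ± 0.22). At the promoter of Ext1, a heparan sulfate polymerase, the peak had 18.3 and 20.7 CPM in Helios null and 30.5 and 42.2 CPM in WT (-0.89 ± 0.22). An intronic peak of Myo10 had 8.84 and 13.5 CPM in Helios null and 20.9 and 26.2 CPM in WT (-1.07 ± 0.25). None of these groups overlapped, which the choice by p nearly fixes (background 28.3% of all peaks lower in both null libraries).

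The strongest peaks of Pde4b, Elmo1 and Foxp1 differed between genotypes by less than 1 SE. The exonic peak of Pde4b at chr4:102569916-102570970 had 64.3 and 62.3 CPM in Helios null and 60.5 and 67.4 CPM in WT, and the Elmo1 peak at chr13:20090104-20091813 had 53.2 and 51.0 CPM in Helios null and 56.5 and 50.4 CPM in WT. These groups overlapped, and the log2 fold changes were -0.01 ± 0.17 and -0.04 ± 0.18. At the promoter of Foxp1 the peak had 21.3 and 21.5 CPM in Helios null and 21.3 and 18.6 CPM in WT (0.10 ± 0.20), although the sum over all peaks of Foxp1 was higher in both null libraries.

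The authors' deposited table gave an adjusted p for 2092 peaks of these genes and placed 14 higher (0.669%, background 0.455%) and 6 lower (0.287%, background 0.958%) at under 0.05. Of these calls in the authors' deposited table, 4 of the higher ones were in Gse1 and 3 in Gm22715, so 7 of 14 lay in 1 gene body. The others in the authors' deposited table were single peaks of Runx1, Hivep3, Sgms1, Sik1, Ptk2b, Cuedc1 and Coro2b. The lower ones in the authors' deposited table were 2 peaks of Trps1 and single peaks of Tns1, Celf2, Myo10 and Ext1. No gene had peaks in both directions in the authors' deposited table. For the Tns1 peak the authors' deposited table gave a log2 fold change of -2.35 ± 0.45 (SE) with an adjusted p of 3.171e-05, and for the intronic Runx1 peak 0.80 ± 0.26 with 0.0344.

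Firre, an X-linked long noncoding RNA gene, had the largest difference between libraries of the same genotype. Its libraries split by number and not by genotype. Other members also differed by number, though less, as the test of library number below shows. Its locus is known for CTCF-bound repeats that are occupied on the inactive X chromosome of females. The 30 Firre peaks summed to 30.9 and 585 CPM in Helios null 1 and 2, against 32.3 and 657 CPM in WT 1 and 2. The number-2 libraries, in which Y-linked counts were near 0, were 18.9-fold higher than number 1 in Helios null and 20.3-fold higher in WT. The genotypes overlapped fully, with a log2 fold change of -0.16 ± 1.35.

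A test of library number in a model with genotype was added after the data were seen, and edgeR called 25 of the 30 Firre peaks higher in number 2 (background 3.4%). Over the X chromosome 323 of 3125 peaks (10.3%) were called higher in number 2, these 25 included, and the median log2 ratio of number 2 to number 1 was 0.31. In 24 peaks the ratio was at least 10-fold. The promoter peak whose sequence is shown was not among them, with 15.4 and 16.4 CPM in Helios null 1 and 2 and 19.6 and 26.4 CPM in WT 1 and 2. The same test on summed counts called 9 of the 127 genes higher in number 2 (7.09%, background 13.3%) and 26 lower (20.5%, background 10.1%). Number 2 differed from number 1 in sex and depth together, and their parts in the sums of the other genes cannot be told apart. At Firre the raw counts were also higher in the shallower libraries. The peak at chrX:50611736-50612562 had 60 and 1525 counts in Helios null 1 and 2 and 19 and 1103 in WT 1 and 2. The cause of the Firre difference was not tested.

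**Figure D5:**
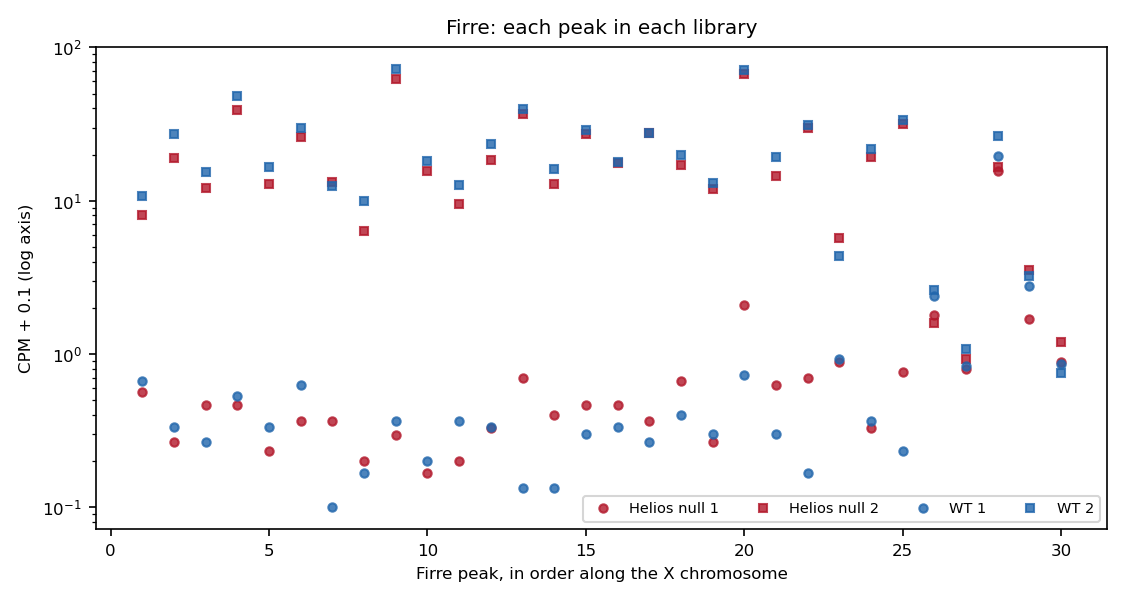
CPM + 0.1 (y axis, log scale) of each of the 30 Firre peaks in order along the X chromosome (x axis) in the Helios null libraries (red) and the WT libraries (blue); circles are number-1 and squares number-2 libraries. In 24 peaks the number-2 libraries of both genotypes lie at least 10-fold above number 1, and the main promoter peak lies at 15.4 to 26.4 CPM in all 4.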

How the data were processed

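Per the labels' protocols, 4 fast-ATAC libraries were made from Lin-Sca1+cKit+ bone marrow cells of 2 Helios null and 2 wild-type (WT) mice, with 1 mouse per library. The submitters' processing notes name the mm10 build and the tools HOMER, DESeq, Bowtie2 2.3.4.3 and bcl2fastq 2.17.1.14, with no role for each; which peak caller was run, and on which reads, is not stated in the labels. The table the authors deposited holds raw counts per peak and library, per the file headers. The authors' baseMean is a signal, the mean of counts after their size factors, and it was not used. The authors' fold change and its SE are on the log2 scale (the headers do not say whether it was shrunk), with the authors' p-value and adjusted p-value.

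Counts as deposited were tested with edgeR 4.0.16 in R 4.3.3 (TMM, filterByExpr by group, glmQLFit and glmQLFTest, Benjamini-Hochberg adjusted p under 0.05, 2-sided), over 130754 of 130941 peaks and, summed over all peaks of each name, over 31513 of 31518 gene names. CPM are TMM-normalised counts per 1000000 reads in peaks. Values are given per library, with 2 libraries a group. The members and gene lists were chosen with earlier results of these data known. Genes named are the 10 with most peaks, the 8 largest log2 fold changes of summed counts in each direction and up to 4 per role list by number of peaks; peaks named are the strongest of the 10 genes with most peaks and the 10 with the smallest p in each direction, 1 per gene. Any other name was picked with its values in view. The test was tried on simulated counts. Alternatives were DESeq2 1.42.0 and its size factors, limma-voom (limma 3.58.1), total counts, loess offsets, other count filters, each library left out, library number as a block, removal of the trend with local peak density, and peak classes or thresholds left out or moved. The test of library number, the division of genes along their length and the promoter comparison were added after seeing the data. Chi-square per degree of freedom between replicates was 5.13 in Helios null and 8.29 in WT, above counting error. Peak sequences were not used here, since no genome was at hand; promoter sequences are from RefSeq (GRCm38.p6).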

Additional observations from a re-analysis of the deposited data

Results flagged for a closer look

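In 3 of the named genes the summed counts gave opposite directions within the 2 library numbers, which followed sex, with 1 library of each genotype per number and no test of the difference. The log2 ratio of Helios null over WT for Pde4b was 0.1114 within number 1 and -0.04 within number 2. For Mbnl1 it was 0.1266 within number 1 and -0.0493 within number 2. For Mllt3 it was 0.0257 within number 1 and -0.193 within number 2. All 3 genes had fitted log2 fold changes within 0.1 of 0, and these differences between numbers were not tested.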

How the results depend on the processing

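Counts of calls depended on the test and on the libraries used. With library number as a replicate block, 574 peaks were higher (11.7%, background 10.6%) and 307 lower (6.24%, background 12.8%), in place of 0 in each. By the same fit 48 genes were higher and 17 lower, also in place of 0. Few values are left in that fit to estimate spread between replicates, so these counts rest mostly on pooled spread. The numbers share sex but no stated litter or day, and deviations of same-numbered libraries had a correlation of 0.371 across peaks. DESeq2 called 19 peaks higher and 11 lower, and 7 genes higher and 2 lower. Leaving out each library in turn, which leaves a group of 1 assumed to vary like the other group, gave 0 to 442 peaks higher, 0 to 286 lower, 0 to 37 genes higher and 0 to 15 lower, the most without WT 1, where the shares were 8.98% and 5.81% of the peaks (8.98% and 12.5% of all peaks) and 29.1% and 11.8% of the genes (17.9% and 21.1% of all names). In the other 3 such fits at most 1.26% of these peaks and 0.787% of these genes were called in a direction, against at most 1.06% of all peaks and 1.37% of all names. Removing the trend with local peak density left 1 peak lower and brought the median log2 fold change of the peaks to 0.0187 from 0.075; under the other settings it lay between 0.0438 and 0.1206. The remaining alternatives gave 0 calls. Of the 127 genes, 85 kept their sign in all 16 settings (54 higher, 31 lower), and 26 of the 33 named genes did, the others being Foxp1, Hivep3, Igf1r, Magi1, Mbnl1, Mllt3 and Pde4b. Of the named peaks, that of Pde4b turned to 0.0195 with total counts and 0.1262 with loess offsets and ran from -0.0988 to 0.0648 with 1 library left out (0.0092 without Helios null 2, 0.0648 without WT 2). That of Elmo1 turned to 0.0671 with loess offsets and ran from -0.1169 to 0.0398 (without WT 1), and the strongest peak of Hivep3 ran from -0.0165 (without WT 2) to 0.4863. With the density trend removed the strongest peaks of Hivep3, Foxp1 and Sgms1 turned to -0.0133, -0.2751 and -0.1192. The causes were not tested. Total counts ran from 16033211 to 30290804.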
